A study of Mus musculus with 20 samples.

Results

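Astrocytes of the mouse spinal cord were described here across 6 single-cell RNA sequencing libraries, 1 for each combination of sham surgery, 7 days post-injury (7 dpi) or 28 dpi with vehicle or PLX5622 chow. Astrocytes were the cells that the authors' table of cells assigned to cluster 4. They numbered 974 of 21016 cells. All mice were female C57BL/6J animals bought at 8 to 10 weeks of age, with no transgene. They ate vehicle chow or chow with PLX5622 at 1200 ppm for 2 weeks before surgery and until the end point, and they received either a contusion of the cord at vertebral level T9 (spinal cord injury, SCI) or a sham laminectomy, which opens the bone only. PLX5622 blocks the CSF1 receptor and so depletes microglia, which need that receptor to survive. Each library came from a piece of unperfused cord pooled over several mice, dissociated enzymatically and mechanically and cleared of myelin debris and dead cells. The labels give the time of both sham libraries as 7 and 28 d. Ratios to sham below are therefore not matched for time after surgery or for length of diet. With 1 pool per condition there was no replicate of any condition, so no difference between conditions could be tested, and every interval below is a 95% counting interval that does not cover the spread between mice or pools.

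Astrocytes clear glutamate and potassium from the space around neurons, couple to each other through gap junctions, line vessels with endfeet rich in water channels, and make much of the cholesterol and apolipoprotein that other cells of the central nervous system use. After SCI they enlarge, assemble intermediate filaments of GFAP and vimentin, and those near the lesion form a border that separates macrophages from spared tissue. Microglia and monocyte-derived macrophages (MDMs) are the phagocytes of the lesion and are both a source of signals to astrocytes and, in a dissociated cord, a source of RNA and debris.

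The cluster held the transcripts that define astrocytes. Of 17 astrocyte markers, 15 had their highest level of any cluster there, among them Slc7a10 (an amino acid transporter), Cldn10 (a claudin), Aldoc (a glycolytic enzyme), Agt (angiotensinogen) and Gjb6 (connexin 30). Slc7a10 stood at 2568 CPM against 35.2 in the next cluster. The 2 exceptions were S100b, at 888 CPM in oligodendrocyte lineage cells and 629.7 in astrocytes, and Sox9, at 932 CPM in ependymal cells and 470.2 in astrocytes. Because clusters were built from expression, these levels describe the cluster and are no finding. CPM is the number of unique molecular identifiers (UMIs, each 1 captured transcript) of a gene, summed over the astrocytes of a library and scaled to 1000000 UMIs of those astrocytes.

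The libraries held 310 astrocytes (sham vehicle), 69 (7 dpi vehicle), 245 (28 dpi vehicle), 204 (sham PLX5622), 39 (7 dpi PLX5622) and 107 (28 dpi PLX5622). Their summed depth was 779726, 183753, 414104, 585992, 105018 and 151572 UMIs in the same order, and the median astrocyte held between 1054 and 2057 UMIs. The 7 dpi PLX5622 library was therefore the thinnest, and 3 UMIs, the upper limit that a count of 0 allows, corresponded there to 28.6 CPM against 3.85 CPM in sham vehicle. A barcode occurred in more than 1 library for 88 cells, of which 5 were astrocytes. The authors' table lists 16003 genes, none of them encoded in the mitochondrion, so the share of mitochondrial RNA could not be read.

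Astrocytes made up a smaller share of the recovered cells after injury under both diets. Under vehicle the share was 17.3% of cells in sham (95% Clopper-Pearson interval 15.5 to 19.1), 0.928% at 7 dpi (0.722 to 1.17) and 2.49% at 28 dpi (2.19 to 2.82). Under PLX5622 it was 41.5% (37.1 to 46), 7.74% (5.56 to 10.4) and 11.4% (9.42 to 13.6). Among cells other than microglia and MDMs, the share was 33.1%, 3.05% and 9.57% under vehicle, and 11.4% and 16.4% at 7 and 28 dpi under PLX5622. A share of recovered cells does not tell fewer astrocytes from more cells of other kinds or from unequal release of cells during dissociation.

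**Figure D1:**
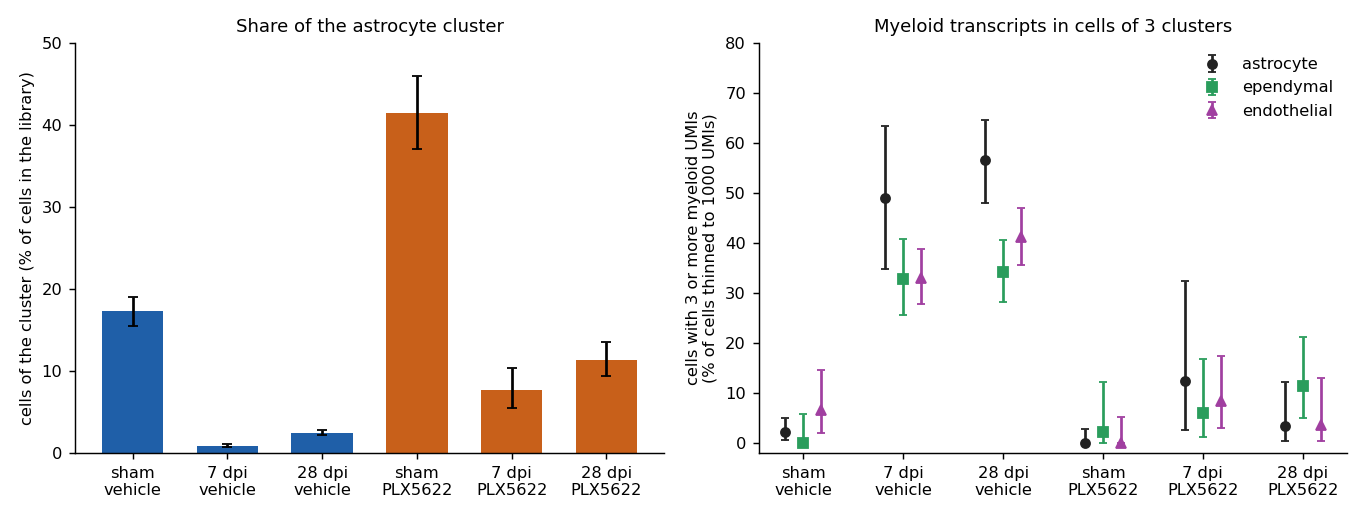
Left, cells of the astrocyte cluster as a percentage of the cells of each library, with 95% Clopper-Pearson intervals: the bars run from 0.928% (7 dpi vehicle) to 41.5% (sham PLX5622). Right, cells with 3 or more UMIs of 12 myeloid genes, as a percentage of cells thinned to 1000 UMIs, for astrocytes, ependymal cells and endothelial cells with the same intervals; all 3 types are highest in the injured vehicle libraries, with astrocytes at 49% and 56.5%.

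Many cells of the cluster carried transcripts of phagocytes, and most of these were in the injured vehicle libraries. A cell was counted when it had 3 or more UMIs of 12 genes abundant in microglia and macrophages (the complement genes C1qa, C1qb and C1qc, and Tyrobp, Fcer1g, Ctss, Csf1r, Cx3cr1, Cd68, Laptm5, Aif1 and Lyz2). Some of the 12, such as Laptm5, are also expressed in lymphocytes, and 82.1% of T cells in sham vehicle and 85.7% in sham PLX5622 met the same count. Such cells were 4.84% of the cluster in sham vehicle, 59.4% at 7 dpi vehicle and 49.8% at 28 dpi vehicle, against 2.45%, 12.8% and 3.74% in the PLX5622 libraries. After every cell was thinned to 1000 UMIs, which sets depth equal and leaves shallower cells out, the shares were 2.22% (0.725 to 5.11), 49% (34.8 to 63.4) and 56.5% (48 to 64.6) under vehicle. Under PLX5622 they were 0 of 127 cells (upper bound 2.86%), 12.5% (2.66 to 32.4) and 3.57% (0.435 to 12.3). At equal depth both injured vehicle libraries stood above all others, while their own order turned.

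In a part of these cells phagocyte transcripts outnumbered those of the astrocyte. In 79 of 245 cells at 28 dpi vehicle (32.2%, 26.4 to 38.5) the 12 myeloid genes had more UMIs than the 17 astrocyte markers, and these cells held 55.1% of the UMIs of the cluster in that library. At 7 dpi vehicle the count was 22 of 69 (31.9%, 21.2 to 44.2), with 55.2% of the UMIs. It was 5 of 310 in sham vehicle, 0 of 204 in sham PLX5622, 2 of 39 at 7 dpi PLX5622 and 2 of 107 at 28 dpi PLX5622. In the 79 cells the myeloid genes took 3.7% of UMIs and the astrocyte markers 0.726%, whereas in the other 166 cells the figures were 0.287% and 5.53%. Microglia and MDMs of the same library gave 4.68% and 0.0129%. The 79 cells were also deeper, with a median of 2294 UMIs against 1004 in the other cells.

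**Figure D2:**
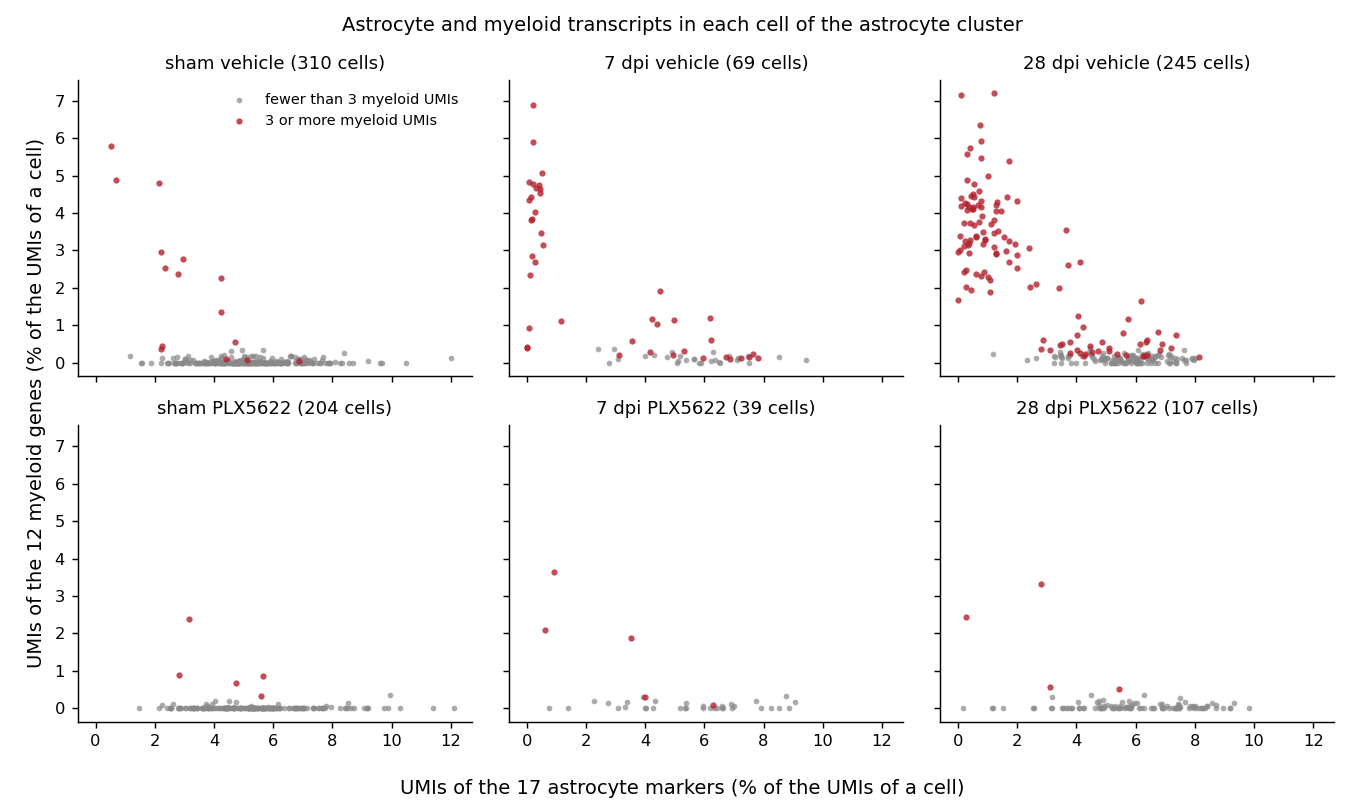
Each point is 1 cell of the astrocyte cluster: the x axis gives the 17 astrocyte markers and the y axis the 12 myeloid genes, each as a percentage of the UMIs of the cell, with cells of 3 or more myeloid UMIs in red. The 28 dpi vehicle and 7 dpi vehicle panels hold a group of cells at the upper left, where 79 of 245 and 22 of 69 cells had more myeloid than astrocyte marker UMIs; no such cell was present among the 204 of sham PLX5622.

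For these 101 cells of the injured vehicle libraries the data go against the label astrocyte. Levels over all cells of the cluster include them, and in those libraries they are levels of the cluster and not of astrocytes alone. Ependymal and endothelial cells of the same libraries also carried myeloid transcripts. After thinning, 32.9% and 34.3% of ependymal cells and 33.1% and 41.3% of endothelial cells at 7 and 28 dpi vehicle had 3 or more myeloid UMIs. At 28 dpi vehicle the list made up 2.17% of the UMIs of the cluster, 0.789% of those of ependymal cells and 1.18% of those of endothelial cells. Scrublet, which flags likely pairs of cells in 1 droplet, was set to call 7.88% of cells at 28 dpi vehicle and 5.95% at 7 dpi vehicle. It called 22.4% and 14.5% of the cluster there, and at most 2.58% in the other libraries, where the set share was at most 1.44%. Whether the droplets with myeloid transcripts held a phagocyte beside an astrocyte, debris, free RNA or a cell of another kind was not tested. Results below are therefore given for all cells of the cluster and, for the genes and lists whose injured vehicle values are described, again for the cells with fewer than 3 myeloid UMIs, which left 295, 28, 123, 199, 34 and 103 cells in the order above. This second reading also removes deeper cells. At 28 dpi vehicle the median was 991 UMIs with fewer than 3 myeloid UMIs and 1498 with 3 or more. It does not remove all myeloid transcripts. In the cells left, the list made up 0.0195% of UMIs in sham vehicle and 0.0882% and 0.1% at 7 and 28 dpi vehicle. Under PLX5622 it made up 0.00464% in sham and 0.0193% and 0.0345% at 7 and 28 dpi. The part of this remainder in levels that stay higher without the droplets was not tested.

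Markers of cell types other than phagocytes were low beside the clusters that they mark, less so those of the oligodendrocyte lineage. That list summed to between 237 CPM (28 dpi vehicle) and 620.4 CPM (7 dpi vehicle), against 2061 CPM in its own cluster. Without the droplets it took 0.154% of UMIs at 7 dpi vehicle and 0.0436% in sham vehicle. Ependymal markers summed to 352 and 198 CPM at 7 and 28 dpi PLX5622, against 54.6 CPM in sham PLX5622. The summed level of the erythroid list moved with the groups, at 1458 and 1055 CPM in the sham libraries, 419 and 891 CPM at 7 and 28 dpi PLX5622, and 16.3 and 21.7 CPM at 7 and 28 dpi vehicle; its part in any result was not tested. T cell markers summed to at most 9.66 CPM in any library. Mog (myelin), Lum and Slc6a13 (fibroblasts), Mmp9 (neutrophils) and Mki67 (cycling cells) had no UMI in any astrocyte, while every other member of their lists had some.

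Gfap, the intermediate filament gene that marks reactive astrocytes, was higher after injury in every reading and under both diets. Its level was 119 CPM in sham vehicle, 1578 at 7 dpi vehicle, 336 at 28 dpi vehicle, 237 in sham PLX5622, 4799 at 7 dpi PLX5622 and 2639 at 28 dpi PLX5622. Each injured library lay above both sham libraries, and in all cells of the cluster the PLX5622 library lay above the vehicle library at each day. At 28 dpi the log2 ratio to sham was 1.49 (95% interval 1.1 to 1.89) under vehicle and 3.48 (3.19 to 3.76) under PLX5622, and at 7 dpi it was 3.73 (3.38 to 4.08) and 4.34 (4.06 to 4.62). Without the droplets with myeloid transcripts the 6 levels were 118, 4235, 701, 237, 4995 and 2718 CPM. PLX5622 against vehicle then gave a log2 ratio of 0.24 at 7 dpi, against 1.6 (1.39 to 1.82) in all cells, and of 1.96 at 28 dpi, against 2.97 (2.69 to 3.26).

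At 7 dpi PLX5622 a single cell carried much of the signal. That cell had 5850 genes and 23519 UMIs, 22.4% of the UMIs of the 39 astrocytes, with 4.04% of them in the astrocyte markers and none in the 12 myeloid genes. The same cell also had 20 of the 37 UMIs of the ependymal markers in its library. It held 65.9% of the Gfap UMIs of its library, and without it Gfap stood at 2110 CPM, which lay above sham by 3.15 and above 7 dpi vehicle by 0.33 on the log2 scale. With both that cell and the droplets left out, Gfap was at 1921 CPM at 7 dpi PLX5622 against 4235 CPM at 7 dpi vehicle, a log2 ratio of −1.14 (−1.48 to −0.80), so the direction between the diets at 7 dpi turned. The ratio to sham PLX5622 was then 3.01 (2.66 to 3.37), and PLX5622 against vehicle at 28 dpi gave 2.00 (1.67 to 2.34). At 7 dpi vehicle this reading rests on 168 Gfap UMIs in 28 cells, and the deepest cell of that library held 0 Gfap UMIs. When only the cells with more myeloid than astrocyte marker UMIs were left out, PLX5622 against vehicle at 7 dpi gave 0.51. At 28 dpi PLX5622 the Gfap UMIs came from 67 of 107 cells, and no cell held more than 6.75% of them. The share of cells with a Gfap UMI does not depend on 1 cell. After thinning to 1000 UMIs it was 10.7% (6.95 to 15.5), 49% (34.8 to 63.4) and 18.4% (12.5 to 25.6) of the cluster in sham, 7 dpi and 28 dpi vehicle, and 17.3% (11.2 to 25), 66.7% (44.7 to 84.4) and 64.3% (50.4 to 76.6) under PLX5622. These shares were not read again without the droplets. Of the same thinned cells, 49% and 56.5% at 7 and 28 dpi vehicle had 3 or more myeloid UMIs, against 12.5% and 3.57% under PLX5622. In T cells of the same libraries, which should lack Gfap, the thinned share was at most 2.03%. The unthinned shares in the cluster were 20.6%, 58%, 24.1%, 31.9%, 71.8% and 62.6%.

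Other genes of the reactive astrocyte were sparse. Of 28 genes that mark reactive astrocytes in general, 27 were in the table, and 5 were measured at 28 dpi against sham under vehicle, where measured means at least 100 UMIs in both libraries together. Vim, which encodes vimentin, stood at 24.4, 267, 219.8, 11.9, 2552 and 574 CPM in the order used above. The deepest cell held 93.3% of its UMIs at 7 dpi PLX5622, and without that cell Vim was at 221 CPM, close to the levels at 7 and 28 dpi vehicle. Without the droplets Vim was at 328 and 75.4 CPM at 7 and 28 dpi vehicle, from 13 and 10 UMIs, and at 593 CPM at 28 dpi PLX5622.

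C4b, a complement gene that astrocytes make, was at 10.3, 141 and 86.9 CPM in sham, 7 dpi and 28 dpi vehicle and at 13.7, 238 and 627 CPM under PLX5622. At 28 dpi it was spread over 30 of the 107 PLX5622 astrocytes, and its log2 ratio of PLX5622 to vehicle was 2.85 (2.28 to 3.45), or 2.49 without the droplets. Serpina3n, a secreted protease inhibitor, had 48.3 CPM (20 UMIs) at 28 dpi vehicle and 422 CPM (64 UMIs) at 28 dpi PLX5622. C3, the central complement component, had 41.1 CPM (17 UMIs) and 508 CPM (77 UMIs, in 18 cells) in the same libraries. Without the droplets Serpina3n was at 82.9 and 421 CPM and C3 at 37.7 and 517 CPM. All 3 genes were highest at 28 dpi PLX5622, and Serpina3n and C3 had fewer than 100 UMIs in the 28 dpi libraries together. Lists of genes named for the A1 and A2 reactive states had at most 1 measured gene each in these comparisons, so neither state could be read at this depth.

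**Figure D3:**
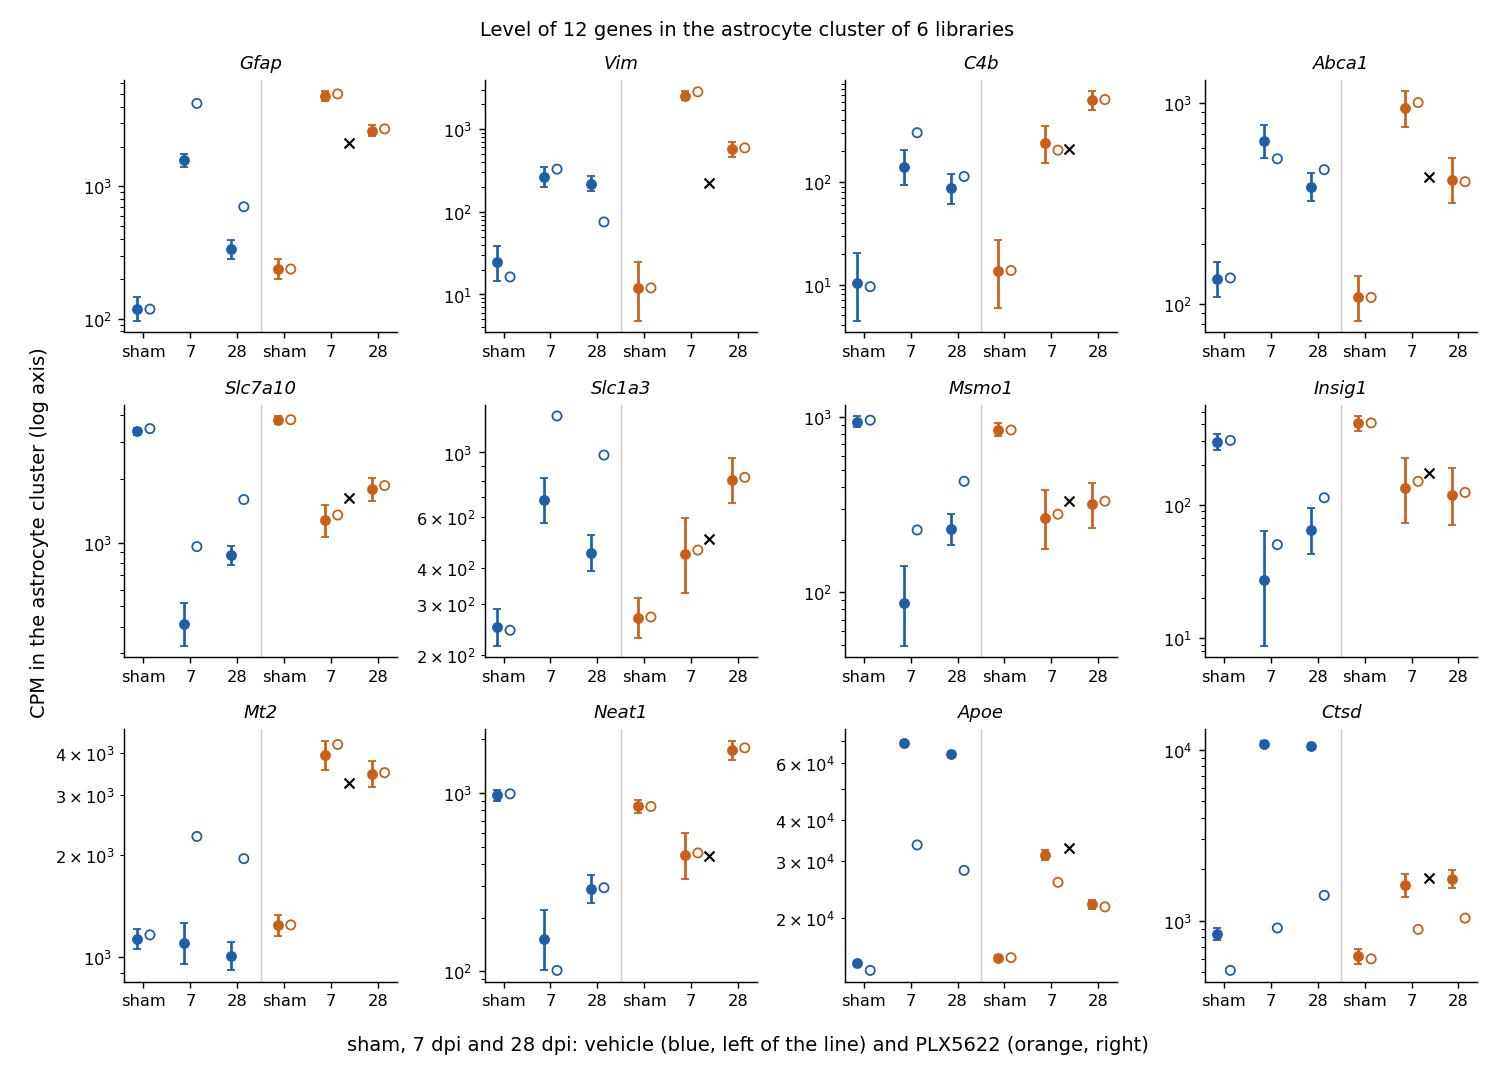
Level of 12 genes in the astrocyte cluster, in CPM on log axes, for sham, 7 dpi and 28 dpi under vehicle (blue) and PLX5622 (orange). Filled points are all cells of the cluster with 95% Poisson counting intervals, open points the cells with fewer than 3 myeloid UMIs, and crosses the 7 dpi PLX5622 library without its deepest cell; for Vim that cross lies at 221 CPM below a filled point of 2552 CPM, and for Ctsd the filled points of the injured vehicle libraries (10824 and 10483 CPM) lie far above the open ones (907 and 1409 CPM).

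Against sham vehicle, 28 dpi vehicle had 1891 measured genes, of which 257 were at least 2-fold higher (13.6% of the genes measured) and 338 at least 2-fold lower (17.9%). The median log2 ratio of all measured genes was −0.35. The genes with the highest ratios were those of phagocytes: Spp1 (osteopontin) led at 6.71, followed by Gpnmb, Cd52, Lyz2, Cyba, Mpeg1, Tyrobp, Aif1, Fcer1g and Cst7. Without the droplets with myeloid transcripts 1342 genes were measured, 98 were higher and 72 lower by 2-fold or more, and the median was 0.01. Of the 257 higher genes, 120 were still measured and 66 were still 2-fold higher, and of the 338 lower genes 295 were still measured and 58 were still 2-fold lower. With TMM factors, which scale by the bulk of genes in place of totals, the higher and lower shares in all cells were 16.3% and 9.99% and the median −0.12.

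At 7 dpi vehicle the same comparison gave 1496 measured genes, with 236 higher (15.8%) and 469 lower (31.4%) by 2-fold or more and a median of −0.44. Without the droplets 1164 genes were measured, 163 were higher and 229 lower. DESeq2 size factors gave 19% higher and 23.4% lower in all cells, with a median of −0.17. Both comparisons share the sham vehicle library, and the second reading at 7 dpi rests on 28 cells. Between the injured vehicle libraries themselves, 28 dpi against 7 dpi, 22 of 761 measured genes were higher (2.89%) and 13 lower (1.71%). Both libraries carry the myeloid droplets, and without these 11 of 176 genes were higher (6.25%) and 10 lower (5.68%). Gfap was among the lower genes, at a log2 ratio of −2.23. TMM factors gave 4.2% and 1.45%.

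The injury comparisons under PLX5622 were less touched by the myeloid transcripts. At 7 dpi 1048 genes were measured, of which 123 were higher (11.7%) and 100 lower (9.54%), with a median of −0.03. At 28 dpi 1151 were measured, of which 56 were higher (4.87%) and 56 lower (4.87%), with a median of 0.05. Without the droplets, 83 of the 123 and 87 of the 100 genes at 7 dpi and 45 of the 56 and 52 of the 56 at 28 dpi kept a 2-fold difference. TMM factors gave 8.3% higher and 13.6% lower at 7 dpi, with a median of −0.21, and 1.82% higher and 8.6% lower at 28 dpi, with a median of −0.18. These comparisons share the sham PLX5622 library and no library with the vehicle ones.

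Among the genes highest at 28 dpi PLX5622 against sham PLX5622 were Gfap, Dhrs1 (a dehydrogenase), Fxyd1 (a regulator of ion transport), Abca1 (a cholesterol exporter), Slc38a1 (a glutamine transporter), Marcks (an actin regulator), Mfge8 (a bridging protein of phagocytosis), Slc1a3 (the glutamate transporter GLAST) and Astn1. Fxyd1 was at 411 CPM in sham PLX5622, 905 at 7 dpi and 1616 at 28 dpi, which was 1.97 (1.71 to 2.24) above sham on the log2 scale, while under vehicle it was at 294, 299 and 299 CPM. Without the droplets the vehicle levels of Fxyd1 were 289, 731 and 626 CPM, above sham in both injured libraries.

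The glutamate transporters of astrocytes, which end the transmitter's action at synapses, showed the weight of the droplets. Slc1a3 stood at 250.1, 686 and 452 CPM in sham, 7 dpi and 28 dpi vehicle and at 269.6, 448 and 805 CPM under PLX5622. Both injured libraries of each diet lay above their sham. Without the droplets the vehicle levels were 244, 1336 and 979.8 CPM, and the log2 ratio at 28 dpi was 2.01 in place of 0.85 (0.56 to 1.15). The PLX5622 ratio at 28 dpi was 1.58 (1.23 to 1.93), or 1.6 without the droplets. Slc1a2 (GLT-1) was at 6357, 7858 and 5494 CPM under vehicle and 6191, 7913 and 9263 CPM under PLX5622. Its log2 ratio at 28 dpi was −0.21 (−0.28 to −0.14) under vehicle in all cells and 0.77 without the droplets. Of the 14 genes of amino acid and transmitter uptake, 11 were measured at 28 dpi vehicle with a median of −0.66 and 2 of them 2-fold lower, beside −0.35 and 17.9% of all genes measured. Without the droplets the median was 0.39, with 2 higher and 1 lower, beside 0.01 and 7.3% higher and 5.37% lower of all genes. Under PLX5622 the median was 0.37, with 1 higher and 1 lower, beside 4.87% in each direction.

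Slc7a10, which carries serine and other small amino acids and was the leading marker of the cluster, was lower after injury in both diets and both readings. Its level was 3368, 414 and 874 CPM in sham, 7 dpi and 28 dpi vehicle and 3809, 1276 and 1788 CPM under PLX5622. No injured library reached a sham library. At 28 dpi the log2 ratio was −1.95 (−2.11 to −1.79) under vehicle, or −1.12 without the droplets, and −1.09 (−1.28 to −0.91) under PLX5622, or −1.03. The other markers behaved differently from each other. Agt, the precursor of angiotensin, was at 1225, 1045 and 985 CPM under vehicle and 1360, 1847 and 2982 CPM under PLX5622, with a log2 ratio of 1.13 (0.96 to 1.3) at 28 dpi PLX5622. Without the droplets it was at 1243, 2445 and 2103 CPM under vehicle, and its ratio at 28 dpi vehicle turned from −0.31 (−0.48 to −0.15) to 0.76. Cldn10 was lower at 28 dpi PLX5622, at 1221 CPM against 2486 in sham PLX5622, a log2 ratio of −1.03 (−1.26 to −0.8), but at 28 dpi vehicle its ratio of −1.26 (−1.41 to −1.11) became −0.29 without the droplets. Aldoc at 28 dpi vehicle went from −0.86 (−0.95 to −0.77) to 0.15 between the readings.

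Of 15 genes that buffer potassium and water, 11 were measured at 28 dpi vehicle. Their median log2 ratio was −0.68 with 0 past 2-fold, beside −0.35 and 13.6% higher and 17.9% lower of all genes. Without the droplets the median was 0.3 and 1 was higher, beside 0.01 and 7.3% higher and 5.37% lower of all genes. Under PLX5622 the median at 28 dpi was 0.28 with 0 past 2-fold, beside 0.05 and 4.87% in each direction. In the last 2 readings counts this small do not set the list apart from all genes. Aqp4, the water channel of the endfeet, was at 2866, 2362 and 1942 CPM under vehicle and 2689, 4390 and 4394 CPM under PLX5622. Without the droplets its vehicle levels were 2922, 4436 and 4138 CPM, so that the ratio at 28 dpi vehicle turned from −0.56 (−0.68 to −0.45) to 0.5, and that of PLX5622 to vehicle at 28 dpi went from 1.18 (1.03 to 1.33) to 0.13. Genes of gap junctions and adhesion had a median of −0.92 at 28 dpi vehicle over 16 of 18 genes and 7 of them 2-fold lower, beside 17.9% of all genes, against −0.09 without the droplets and 0.26 under PLX5622. At 7 dpi vehicle their median was −1.47 with 10 of 14 lower, and −0.44 with 5 of 14 lower without the droplets, beside 31.4% and 19.7% of all genes.

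Most sterol enzymes of the list of cholesterol and fatty acid synthesis were lower after injury under both diets, while the fatty acid desaturase Scd2 of the same list was not. Astrocytes build sterols through a chain of enzymes from Hmgcs1 to Msmo1 and Dhcr7, while Insig1 holds the pathway's activator in check and is itself among its targets. Of 23 genes of the list, 18 were measured at 28 dpi vehicle, with a median of −1.22 and 12 at least 2-fold lower, beside −0.35 and 17.9% of all genes measured. Without the droplets the median was −0.46, with 2 higher and 5 lower, beside 0.01 and 5.37% for all genes. At 28 dpi PLX5622 the median over 18 genes was −0.95 and 9 were 2-fold lower, beside 0.05 and 4.87% of all genes, and without the droplets it was −0.7 with 8 lower. At 7 dpi the medians were −1.88 with 15 lower under vehicle, beside −0.44 and 31.4% of all genes, or −1.25 with 10 lower without the droplets, beside −0.13 and 19.7%. Under PLX5622 at 7 dpi the median was −1.07 with 10 of 17 lower, beside −0.03 and 9.54%, or −1.04 with 9 lower.

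The summed level of the list ran otherwise under vehicle. It was 0.744% of UMIs in sham, 0.371% at 7 dpi and 0.401% at 28 dpi in all cells, but 0.76%, 0.779% and 0.801% without the droplets. Under PLX5622 it was 0.804%, 0.542% and 0.621%. The sum is led by 2 genes of fatty acid metabolism, the desaturase Scd2 and the acyl-CoA ligase Acsl3, named here after their values were seen. Without the droplets Scd2 was at 1509, 4461 and 3347 CPM under vehicle and 1482, 2272 and 2290 CPM under PLX5622, higher in each injured library than in its sham, and Acsl3 was at 2053, 907 and 1605 CPM and 1855, 1040 and 1138 CPM, lower in each.

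Msmo1, a sterol oxidase, had the highest level of the sterol enzymes in both shams. It stood at 941, 87.1 and 229 CPM in sham, 7 dpi and 28 dpi vehicle and at 846, 267 and 317 CPM under PLX5622. The sham libraries held the highest levels, and the 4 injured ones lay at or below 317 CPM. The log2 ratio at 28 dpi was −2.04 (−2.36 to −1.73) under vehicle, or −1.16 without the droplets, and −1.42 (−1.88 to −0.99) under PLX5622, or −1.35. Insig1 was at 296, 27.2 and 65.2 CPM under vehicle and 408, 133 and 119 CPM under PLX5622. Its ratio at 28 dpi was −2.18 (−2.82 to −1.61) and −1.78 (−2.56 to −1.09), or −1.42 and −1.73 without the droplets. Fdps and Sqle, enzymes in the middle of the chain, were also 2-fold lower at 28 dpi under both diets in both readings.

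**Figure D4:**
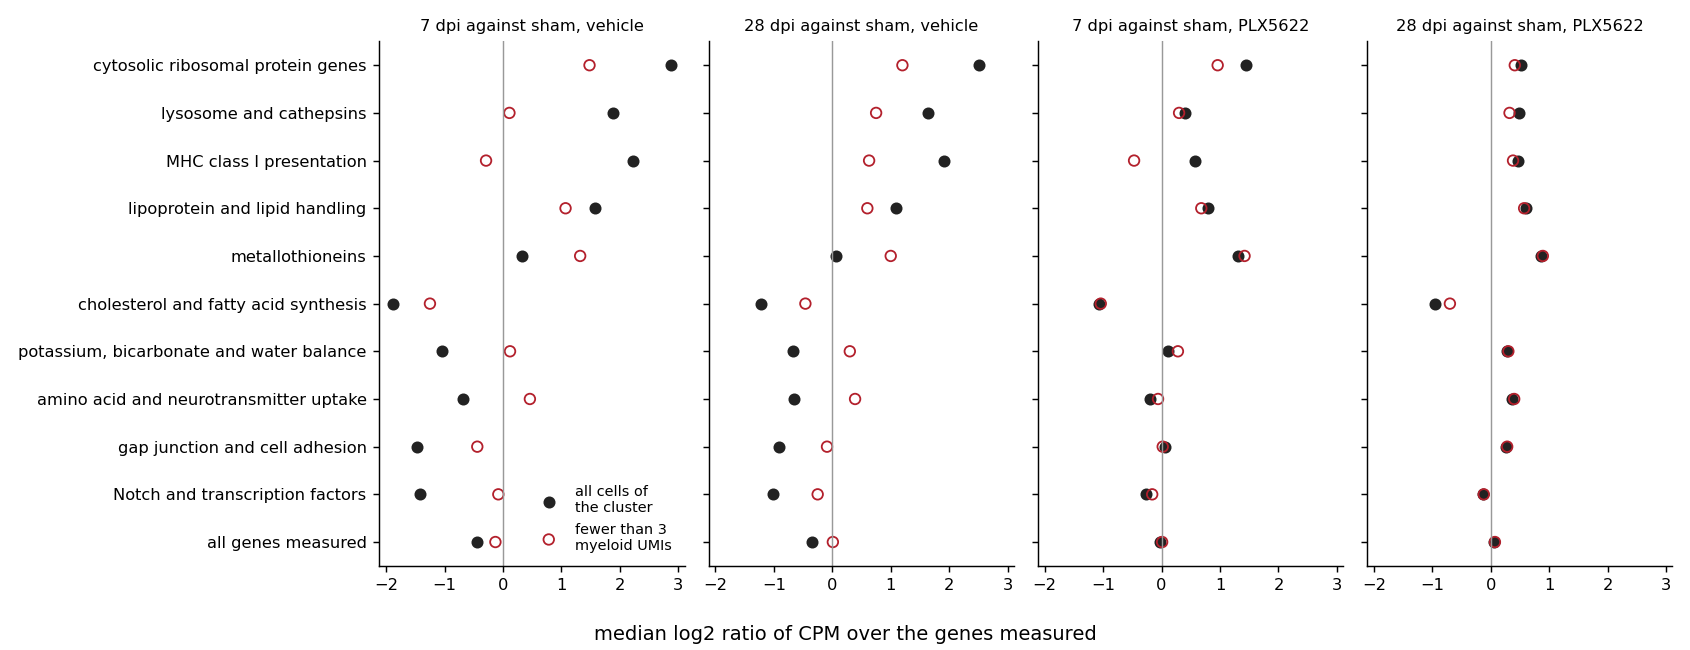
Median log2 ratio of CPM over the measured genes of 10 lists and of all genes, for 4 comparisons of injury with sham: filled points are all cells of the cluster and open red points those with fewer than 3 myeloid UMIs. Cholesterol and fatty acid synthesis lies left of 0 in every panel and both readings (−1.22 and −0.46 at 28 dpi vehicle), whereas the filled and open points of lysosome genes are far apart under vehicle (1.63 and 0.75) and close under PLX5622.

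Hmgcs1, the entry enzyme, is shown with its promoter because it was the only gene of the list whose window held the sterol response element in the form searched, TCACNCCAC on either strand. The window is RefSeq's, from 250 bases before to 50 after the start of the gene on GRCm38.p6; 15 of the 23 genes had one, and 1.24% of 32851 windows of all genes held the letters. The match starts 137 bases before the start of the gene and is in capitals. The stretch lies at chr13:119690181-119690280 on the plus strand.
Hmgcs1: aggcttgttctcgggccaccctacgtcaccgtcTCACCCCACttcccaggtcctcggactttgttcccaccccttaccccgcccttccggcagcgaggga
Hmgcs1 itself was at 183, 70.7 and 99 CPM in sham, 7 dpi and 28 dpi vehicle and at 275, 152 and 211 CPM under PLX5622, lower in each injured library than in its sham. Its vehicle levels without the droplets were 188, 50.4 and 158 CPM, and the level at 7 dpi rests on very few UMIs in 28 cells. Without the cells with more myeloid than marker UMIs, its log2 ratios to sham at 7 and 28 dpi were −0.79 and −0.44 under vehicle. Under PLX5622 they were −0.85 and −0.35, so each was under 2-fold. A match of letters is a description and no evidence of binding.

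Lipid export and lysosome genes differed from the synthesis genes in direction. Abca1, which loads cholesterol onto apolipoproteins, was at 133, 648 and 384 CPM under vehicle and 108, 943 and 416 CPM under PLX5622, so each injured library lay above both shams. The ratio at 28 dpi was 1.53 (1.16 to 1.9) under vehicle, or 1.79 without the droplets, and 1.95 (1.42 to 2.48) under PLX5622, or 1.91. At 7 dpi PLX5622 the deepest cell held 64.6% of its UMIs, and without it Abca1 was at 429 CPM, with a ratio of 1.97 to sham. Apoe, the main apolipoprotein of the central nervous system, which phagocytes also make, was at 14486, 69120 and 64235 CPM under vehicle and 14993, 31252 and 21976 CPM under PLX5622. Its ratio at 28 dpi vehicle was 2.15 (2.12 to 2.18) in all cells and 1.03 without the droplets, and PLX5622 against vehicle at 28 dpi gave −1.55 (−1.6 to −1.5) and −0.37. Of 17 lysosome and cathepsin genes, all 17 were measured at 28 dpi vehicle, with a median of 1.63 and 9 higher, beside −0.35 and 13.6% of all genes. Without the droplets 13 were measured, with a median of 0.75 and 3 higher, beside 7.3% of all genes. Ctsd, a protease of the lysosome, showed a wide gap between the readings. Its log2 ratio at 28 dpi vehicle was 3.65 (3.53 to 3.77) in all cells and 1.46 without the droplets. Phagocytes also carry Apoe and Ctsd, and the part of the myeloid transcripts left in the second reading was not tested.

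Few measured genes were 2-fold different in the same direction under both diets and in both readings. At 28 dpi 1063 genes were measured in all of them. The 6 that were higher were Gfap, Abca1, Marcks, Tmsb4x (thymosin beta 4, an actin-binding peptide) and the ribosomal protein genes Rpl35 and Rpl39. The 11 that were lower were Slc7a10, the sterol genes Msmo1, Insig1, Fdps and Sqle, the transcription factor Olig1, Adrb1 (a beta adrenergic receptor), Gng11 (a G protein subunit), Flrt1, Fam181b and Utp14b. At 7 dpi, of 942 genes, 40 were higher, most of them ribosomal protein genes, and 53 were lower. The lower genes at 7 dpi included the sterol genes Idi1, Fdft1, Dhcr7, Msmo1, Insig1 and Fdps, and Igfbp2 (a binding protein of insulin-like growth factors), Vegfa (vascular growth factor), Hes1 (a Notch target) and Malat1. Neither reading removed the deepest cell of 7 dpi PLX5622. Without the deepest cell of each library, the log2 ratios to sham at 7 dpi PLX5622 were −0.95 for Vegfa and −0.95 for Malat1, under 2-fold. The other genes named here as lower at 7 dpi ran from −1.13 for Hes1 to −2.02 for Igfbp2.

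Igfbp2 was at 744, 16.3 and 215 CPM in sham, 7 dpi and 28 dpi vehicle and at 1038, 200 and 178 CPM under PLX5622. It was the lowest of all ranked genes at 28 dpi PLX5622, with a log2 ratio of −2.54 (−3.16 to −1.99), or −2.49 without the droplets. Under vehicle at 28 dpi its ratio was −1.79 (−2.13 to −1.47), or −0.94. Vegfa was at 813, 43.5 and 213 CPM under vehicle and 826, 333 and 614 CPM under PLX5622. Its ratio at 7 dpi was −4.22 (−5.44 to −3.24) under vehicle and −1.31 (−1.85 to −0.81) under PLX5622. Under vehicle the ratio was −5.07 without the droplets, a value near the floor that rests on very few UMIs in 28 cells. Without the cells with more myeloid than marker UMIs it was −3.79. At 28 dpi vehicle it was −1.94 (−2.27 to −1.61), or −0.98, and at 28 dpi PLX5622 it was −0.43 (−0.76 to −0.11). Malat1, a nuclear non-coding RNA, took 194680 CPM in sham vehicle 166047 CPM in sham PLX5622, and between 39722 and 73462 CPM in the 4 injured libraries. The injured vehicle levels of Malat1 without the droplets were 63721 and 110224 CPM, against 200609 CPM in sham.

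Ribosomal protein genes were higher at 28 dpi vehicle in nearly every case. Of 84 such genes 76 were measured, with a median log2 ratio of 2.51 and 75 of them 2-fold higher, beside 13.6% of all genes. Without the droplets the median over 73 genes was 1.2 with 52 higher, beside 7.3%. At 7 dpi the medians were 2.87 and 1.48 under vehicle and 1.45 and 0.96 under PLX5622, and at 28 dpi PLX5622 they were 0.51 and 0.41. Class I antigen presentation had 5 of 14 genes measured at 28 dpi vehicle, all 5 higher with a median of 1.91, beside 13.6% of all genes, and 2 measured without the droplets, 1 of them higher, with a median of 0.63.

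PLX5622 alone was accompanied by few differences in the uninjured cord. Of 2282 genes measured in the sham libraries, 16 were 2-fold higher (0.701%) and 16 lower (0.701%), with a median log2 ratio of 0.02. The lowest ratios were those of microglial genes, C1qc at −3.87, then C1qa and Cx3cr1, and without the droplets 4 of the 16 lower genes kept a 2-fold difference. The highest were BC002163, at 1.52, and Acsbg1, an acyl-CoA synthetase, at 1.5. Gfap was at 237 CPM in sham PLX5622 against 119 in sham vehicle, a log2 ratio of 0.99 (0.6 to 1.39), just short of 2-fold, and 1.0 without the droplets. Mt3, a metallothionein of the central nervous system, was at 3681 against 1967 CPM, a ratio of 0.9 (0.81 to 1.0).

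At 28 dpi PLX5622 against vehicle gave 771 measured genes, of which 133 were higher (17.3%) and 195 lower (25.3%) by 2-fold or more, with a median of 0.18. The lowest were again genes of phagocytes, led by Ctss at −5.32. Of 353 genes measured in both readings, 147 were past 2-fold in all cells, 18 without the droplets and 17 in both. Of the 17, 1 gene, the tetraspanin Cd9, named here after its values were seen, turned from −1.40 to 1.35 between the readings. The highest ratios included Gfap at 2.97, C4b at 2.85, S100a6 at 2.71, Dhrs1 at 2.68, Neat1 at 2.59 and Fxyd1 at 2.43, with Cnn3, Ntm and Nfasc also among them. With TMM factors the shares were 4.28% higher and 32.6% lower, and the median was −0.33, so the split of the genes by direction depends on the scaling. The genes that led at 28 dpi kept ratios above 1 without the droplets where they were measured, at 1.96 for Gfap, 2.49 for C4b, 2.0 for S100a6, 2.61 for Neat1, 1.42 for Fxyd1 and 1.28 for Ntm. Removing instead the cells with more myeloid than astrocyte marker UMIs left 442 measured genes, of which 14 were higher and 16 lower.

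**Figure D5:**
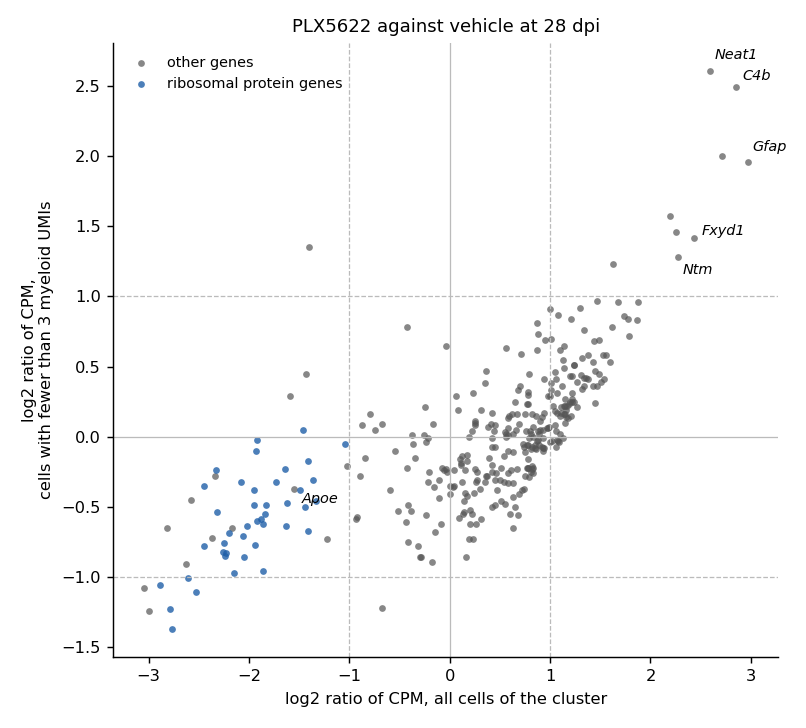
Log2 ratio of PLX5622 to vehicle at 28 dpi for 353 genes, in all cells of the cluster (x axis) and in those with fewer than 3 myeloid UMIs (y axis), with ribosomal protein genes in blue and dashed lines at 2-fold. Of the 147 genes past 2-fold on the x axis 17 are past it on the y axis, among them Gfap, C4b, Neat1, Fxyd1 and Ntm at the upper right.

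At 7 dpi PLX5622 against vehicle gave 363 measured genes, with 58 higher (16%) and 131 lower (36.1%) and a median of −0.19. Only 124 genes were measured without the droplets, 8 of them higher and 12 lower. TMM factors gave 7.99% higher and 41.3% lower in all cells, with a median of −0.57. Vim led at 3.26 (2.81 to 3.73), and its ratio was 0.21 without the deepest cell of each library. F3, tissue factor, was next at 3.06 (2.32 to 3.88), or 3.14 without the deepest cells, from 98 CPM (18 UMIs) at 7 dpi vehicle and 819 CPM at 7 dpi PLX5622. Without the droplets its ratio was 2.32 (1.21 to 3.68), from 7 UMIs at 7 dpi vehicle and 82 at 7 dpi PLX5622, too few to count as measured.

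The metallothioneins, small cysteine-rich proteins that bind zinc and copper, stood highest in the injured PLX5622 libraries in all cells of the cluster, by a margin that was under 2-fold at 28 dpi without the droplets. Mt1 was at 4620, 6171 and 4842 CPM in sham, 7 dpi and 28 dpi vehicle and at 6777, 16778 and 12271 CPM under PLX5622. Mt2 was at 1132, 1099 and 1009 CPM and at 1242, 3942 and 3470 CPM. Mt3 was at 1967, 2471 and 2369 CPM and at 3681, 5570 and 5720 CPM. In all cells no vehicle library reached an injured PLX5622 library for any of the 3 genes. Mt2 at 28 dpi had a log2 ratio to sham of −0.17 (−0.34 to 0.0) under vehicle and 1.48 (1.32 to 1.65) under PLX5622, and of PLX5622 to vehicle of 1.78 (1.59 to 1.97).

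The injured vehicle libraries lay closer once the droplets were left out. Mt1 was then at 4703, 11746 and 9429 CPM under vehicle and 6808, 18190 and 12630 CPM under PLX5622, and Mt3 at 2006, 5621 and 5027 CPM and 3697, 5971 and 5808 CPM. At 28 dpi the median ratio to sham of the 3 genes was 1.00 under vehicle with 2 of them higher, and 0.89 under PLX5622 with 1 higher. Mt2 had the widest gap between the diets. It was then at 1164, 2269 and 1952 CPM under vehicle and at 1245, 4234 and 3497 CPM under PLX5622, so that the ratio to sham at 28 dpi was 0.75 under vehicle and 1.49 under PLX5622, and PLX5622 against vehicle gave 0.84. All 3 metallothioneins were 2-fold higher in PLX5622 than in vehicle at 28 dpi in all cells, and 0 of the 3 without the droplets. At 7 dpi PLX5622 the deepest cell held 35.7% of the Mt2 UMIs, and without it Mt2 was at 3264 CPM. Ependymal cells had a Mt2 ratio of PLX5622 to vehicle at 28 dpi of 0.43 (0.32 to 0.54) and endothelial cells one of 0.55 (0.16 to 0.94).

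The promoter of Mt2 is shown because all 3 metallothioneins were above sham in every injured library without the droplets. Metal response elements were searched as TGCACNC or TGCGCNC on either strand. All 3 genes held at least 1 match in their RefSeq window and 2 of the 3 held 3 or more, beside 25.7% and 1.97% of all 32851 windows. Mt2 had matches that start 223, 128 and 50 bases before the start of the gene, which are in capitals, and 1 after it. The stretch printed is the 250 bases before the start, chr8:94172368-94172617 of GRCm38.p6 on the plus strand.
Mt2: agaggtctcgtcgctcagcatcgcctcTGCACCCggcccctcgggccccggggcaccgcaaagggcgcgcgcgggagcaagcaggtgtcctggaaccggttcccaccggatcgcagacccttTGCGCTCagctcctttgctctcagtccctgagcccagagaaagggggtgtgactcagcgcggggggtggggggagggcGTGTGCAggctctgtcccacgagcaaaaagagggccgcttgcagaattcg
The matches describe the letters in this window and do not say that a factor bound there.

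Neat1, a nuclear RNA that scaffolds paraspeckles, differed between diets at 28 dpi by about the same ratio with and without the droplets. It was at 972, 152 and 289.8 CPM in sham, 7 dpi and 28 dpi vehicle and at 841, 448 and 1742 CPM under PLX5622. The 28 dpi PLX5622 library lay above all others and the 28 dpi vehicle library below both shams. The 264 UMIs at 28 dpi PLX5622 came from 65 of 107 cells. The ratio of PLX5622 to vehicle at 28 dpi was 2.59 (2.27 to 2.91) in all cells and 2.61 without the droplets. In ependymal cells it was −0.72 (−1.52 to 0.03) and in endothelial cells −0.25 (−0.8 to 0.26).

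Cells with and without Gfap were compared within each library. Cells were thinned to 1000 UMIs and split at 1 Gfap UMI, which gave 24 of 225 cells with Gfap in sham vehicle, 25 of 51 at 7 dpi, 27 of 147 at 28 dpi, and 22 of 127, 16 of 24 and 36 of 56 under PLX5622. Of 895 genes, 38 were higher in the cells with Gfap in all 6 libraries (4.25%) and 11 were lower in all 6 (1.23%). This is a count of directions with no test, and some genes take 1 direction in all 6 libraries without any relation to Gfap. The cells without Gfap at 7 and 28 dpi vehicle include the cells rich in myeloid transcripts. A cell with no Gfap UMI at this depth may still express the gene, and the split is a range and not a pair of cell types.

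Of the 38, Fxyd1 was at 375 CPM with Gfap and 299 without in sham vehicle, 520 and 269 at 7 dpi vehicle, 667 and 250 at 28 dpi vehicle, 500 and 371 in sham PLX5622, 938 and 625 at 7 dpi PLX5622, and 2444 and 700 at 28 dpi PLX5622. Its gap was widest at 28 dpi PLX5622. The mean over libraries of Slc1a3 was 822 CPM with Gfap and 410.4 without, that of Aqp4 4420 and 2537, that of Mt2 2450 and 1369, that of Agt 2441 and 1345 and that of Clu, the apolipoprotein clusterin, 3493 and 2055. The lower genes were led by the macrophage protease Ctss, at a mean of 294 CPM with Gfap and 1184 without. In sham PLX5622, where no thinned astrocyte had 3 or more myeloid UMIs, Slc1a3 was at 455 and 238 CPM and Agt at 2727 and 1086. At a split of 2 Gfap UMIs, which 5 cells of that library reached, Slc1a3 turned to 200 and 238 CPM. Agt was then at 3200 and 1086 CPM.

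Ratios in other cell types of the same libraries are given over all their cells. After thinning, 34.3% of ependymal and 41.3% of endothelial cells at 28 dpi vehicle had 3 or more myeloid UMIs. Whether a ratio seen in several types was a shared response of the cells was not tested. At 28 dpi vehicle against sham, Ctsd had a log2 ratio of 4.91 (4.53 to 5.31) in ependymal cells and of 4.09 (3.8 to 4.39) in endothelial cells, beside 3.65 in the astrocyte cluster. Msmo1 had a ratio of −0.6 (−1.69 to 0.52) in ependymal cells, from 18 and 14 UMIs. In endothelial cells it was −0.94 (−1.98 to 0.15), from 21 and 14 UMIs. In the astrocyte cluster the Msmo1 ratio was −2.04 in all cells, below both intervals, and −1.16 without the droplets, inside both. Both intervals are over all cells of their types, with the myeloid transcripts left in. Abca1 had ratios of 0.16 (−0.21 to 0.55) and 0.82 (0.22 to 1.47), beside 1.53 (1.16 to 1.9) in the astrocyte cluster. No difference between cell types was tested.

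Genes that the study itself named for astrocytes at 28 dpi were chosen on these libraries, so their direction is no independent evidence. All 9 genes named as higher were measured and 2-fold higher at 28 dpi vehicle, with a median of 3.16. Without the droplets 7 were measured, 6 of them 2-fold higher, with a median of 1.12. Of the 15 genes named as lower, 8 were 2-fold lower with a median of −1.08, and 3 without the droplets, with a median of −0.41.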

How the data were processed

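The members were the cells of cluster 4 in the authors' table of cells, and the members, gene lists and comparisons were chosen with earlier results of these data known. Per the labels and the study's methods, 10x 3′ libraries were processed by the authors with Cell Ranger and Seurat on GRCm38/mm10, with clusters made over all 6 libraries. The deposited table used holds raw UMI counts of each cell, as the authors made them, with no normalization. Cells above 3000 genes were to be removed per the study's methods, but 716 of the 21016 cells, 16 of them astrocytes, exceed that limit and were kept here. Doublet removal is not given in the sources used here; Scrublet calls were used as an alternative. The bulk libraries of the series were not used here.

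Counts were summed over the astrocytes of each library and scaled to CPM, with 95% intervals from the exact Poisson distribution, and ratios as log2 of CPM with exact conditional binomial intervals, a count of 0 being set to 3 UMIs. Shares have Clopper-Pearson intervals. All cover counting error only. With 1 pooled library per condition no test was made and no p-value computed. A gene was measured with at least 100 UMIs in the 2 libraries compared. Genes were named by a rule of size: the 10 highest and 10 lowest ratios among measured genes with at least 10 UMIs in each library, genes of the lists, and genes past 2-fold under both diets; a few named for the part that 1 cell or the droplets played were chosen after their values were seen. Removal of the deepest cell, alone or with the droplets, and of cells with more myeloid than astrocyte marker UMIs were alternatives chosen after seeing the data. The scripts were tested on simulated data. Python 3.11.15 with scipy 1.17.1, pandas 2.3.3 and scanpy 1.11.5 was used; edgeR 4.0.16 and DESeq2 1.42.0 served for scaling factors only. Results for some genes are not reported here.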

Additional observations from a re-analysis of the deposited data

Results flagged for a closer look

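For 3 genes past 2-fold at 28 dpi the ratio to sham had opposite directions under the diets, and the difference between the diets was not tested. Neat1 had a log2 ratio to sham of −1.75 (−2.04 to −1.47) under vehicle and 1.05 (0.83 to 1.27) under PLX5622. Cnn3, a calponin that binds actin, had −1.08 (−1.62 to −0.57) and 1.43 (0.99 to 1.86), and its vehicle ratio was −0.48 without the droplets with myeloid transcripts. Als2cl had −1.31 (−2.13 to −0.56) and 1.00 (0.42 to 1.57), from 18 UMIs at 28 dpi vehicle and 41 at 28 dpi PLX5622.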

How the results depend on the processing

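No paired analysis was possible because each condition was 1 pooled library, and no library could be left out. Of 186 gene ratios past 2-fold, 12 alternatives, and for 5 genes a removal of both the droplets and the deepest cells, gave 2028 values: 1783 stayed past 2-fold, 239 kept the direction under 2-fold and 6 reversed. Without cells of 3 or more myeloid UMIs, Ctsb turned to 0.45 and Gja1 to −0.03 for PLX5622 against vehicle at 28 dpi, Ctsb to 0.06 at 7 dpi, and Acsbg1 to 0.35 at 7 dpi vehicle; without cells of more myeloid than marker UMIs, Ctsb was 0.32 at 28 dpi; with both removals Gfap was −1.14 for PLX5622 against vehicle at 7 dpi. The cause of these and the next changes was not tested beyond the cells removed.

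Shares of measured genes past 2-fold (higher, then lower) changed as follows. Without cells of 3 or more myeloid UMIs they were 7.3% and 5.37% at 28 dpi vehicle, 19.7% lower at 7 dpi vehicle, 0.183% lower between the diets in sham, 2.83% and 2.27% between the diets at 28 dpi, 6.45% and 9.68% at 7 dpi, and 6.25% and 5.68% for 28 against 7 dpi vehicle. Without cells of more myeloid than marker UMIs they were 7.42% and 4.75%, 18.2% lower, 0.224% lower, 3.17% and 3.62%, 4.67% and 11.7%, and 4.42% and 4.42%. TMM factors gave 9.99% lower at 28 dpi vehicle, 4.28% and 7.99% higher between the diets at 28 and 7 dpi, and 1.82% and 8.6% at 28 dpi PLX5622; DESeq2 factors gave 9.73% lower, then 5.71%, 7.44% and 2.78% higher. Weighting each cell alike gave 8.36% lower at 28 dpi vehicle, 1.97% and 1.4% between the diets in sham, and 7.39% and 7.99% higher at 28 and 7 dpi. Thinning gave 26.2% and 24.6% higher at 28 and 7 dpi vehicle, 0.262% lower between the diets in sham, 7.78% and 8.97% higher at 28 and 7 dpi, and 6.92% and 7.78% higher at 7 and 28 dpi PLX5622. Without Scrublet calls the values were 0.314% lower in sham and 9.74% higher at 28 dpi between the diets, and 6.83% and 3.04% for 28 against 7 dpi vehicle. A minimum of 50 UMIs gave 1.18% and 1.22% in sham and 22.3% lower at 7 dpi between the diets; 200 UMIs gave 20.8% higher at 28 dpi vehicle, 0.301% higher in sham and 38.6% lower at 28 dpi between the diets.

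The astrocyte share among cells other than microglia and MDMs was 33.1%, 3.05% and 9.57% (vehicle sham, 7 and 28 dpi) and 11.4% and 16.4% (PLX5622, 7 and 28 dpi), and among cells with at least 500 genes 2.1% and 8.99% at 28 dpi. Cells with at least 2 myeloid UMIs were 14.2%, 78.3% and 66.5% (vehicle sham, 7 and 28 dpi) and 14% at 28 dpi PLX5622, and with 5 they were 40.6% and 40% at 7 and 28 dpi vehicle. At a split of 2 Gfap UMIs, which no cell of sham vehicle reached, 2.1% of genes were lower in each of the other 5 libraries.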

Other observations

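Further gene lists give a wider view of injury in these cells. Of 19 cytoskeleton and actin genes, 14 were measured at 28 dpi vehicle, with a median log2 ratio to sham of 1.56 and 9 higher, beside 13.6% of all genes measured, and 9 without the droplets with myeloid transcripts, with a median of −0.08 and 2 higher, beside 7.3%. At 7 dpi PLX5622 the median was 0.81 over 10 genes, or 0.79 without the droplets. Genes of Notch signalling and transcription had a median of −1.02 at 28 dpi vehicle with 9 of 18 lower, beside 17.9% of all genes, −0.25 without the droplets and −0.13 under PLX5622. Genes of the matrix, proteoglycans and tenascins had −0.92, −0.21 and 0.18, those of synapse support and trophic signals −0.49, 0.46 and 0.36, those of the endfoot −0.47, 0.3 and 0.47, and those of glycolysis, glycogen and lactate −0.63, 0.06 and −0.35. All genes measured had −0.35, 0.01 and 0.05 in the same readings.

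Inflammatory lists were too sparse to read. Of 26 interferon-stimulated genes 2 were measured at 28 dpi vehicle and 0 at 28 dpi PLX5622, and of 22 cytokines and chemokines 2 were measured in each. Of 24 cell cycle genes 3 were measured at 28 dpi vehicle, 2 of them higher, and 0 of 2 were past 2-fold without the droplets. Of the 32 immediate early and stress genes, which dissociation can also induce, 14 were measured at 28 dpi vehicle with a median of 0.47 and 2 higher, and 6 without the droplets with a median of −0.03.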
